A study of Homo sapiens with 7 samples.

Results

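Box C/D small nucleolar RNAs (snoRNAs) are short RNAs of the nucleolus, and in this count table their rows carry symbols that begin with SNORD. The table held 364 rows whose symbol was SNORD followed by a digit, and the 137 of them with at least 50 counts summed over the 7 libraries were taken as members. The table held 59251 rows in all. Of the other SNORD rows, 66 held at least 1 count and 161 were at 0 in every library. The members were thus chosen on their summed counts, and CTRL, which had more libraries and deeper ones, gave most of that sum. SNORD136, SNORD119 and SNORD67 lay just inside the minimum, with 70, 63 and 61 counts. SNORD3K, SNORD135 and SNORD91B lay just outside it, with 49, 46 and 45 counts.

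The RNA came from H9 cells, an established human embryonic stem cell line, grown in RSeT, a medium for the naive pluripotent state. The DJL1 group (n = 3) had received plasmids with guide RNAs labelled DJL1, and the CTRL group (n = 4) is labelled as the control of that transfection. By its title the series is about LINE1 elements in the distal junctions that border ribosomal DNA arrays, and about how the nucleolus is organized. Both groups were kept in RSeT with 10 nM DZNep (an inhibitor of S-adenosylhomocysteine hydrolase) and 5 nM TSA (trichostatin A, a histone deacetylase inhibitor), so every value below was measured under both drugs. Both also received CEPT, a survival cocktail, for 16 h from the start, and were harvested at 48 h. CEPT holds Chroman 1 (50 nM), Emricasan (5 µM), trans-ISRIB (0.7 µM) and a polyamine supplement. The sources used here name neither the protein that the guides direct nor what the control plasmids carried. They do not say whether the libraries of a group came from separate cultures. The spread behind every p-value below is that between libraries, which may be technical.

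The libraries were made from 200 ng of RNA by poly(A) selection with a directional kit. Mature snoRNAs have no poly(A) tail, and from counts per row a mature snoRNA, a precursor and a stretch of host transcript cannot be told apart. The DJL1 libraries held 34634882 to 37795742 counts and the CTRL libraries 62277489 to 76691997. The square root of the edgeR dispersion, a measure of spread between libraries, was 13.8% within DJL1 and 3.46% within CTRL. Pluripotent stem cell markers summed to 8690 to 9693 CPM (counts scaled to a library size of 1e+06) in DJL1, against 10800 to 11040 in CTRL, and 9 of 10 were lower in DJL1, POU5F1 being the one that was not called. Markers of fibroblasts and feeder cells summed to 1085 to 1194 CPM in DJL1, against 694 to 719.4 in CTRL, and 7 of the 9 that were tested were higher. DCN and LUM, which define fibroblasts, had 9 and 19 counts over the 7 libraries. What part either marker list had in the values below was not tested.

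A box C/D snoRNA carries a C box near its 5′ end and a D box near its 3′ end, which fold together and bind the proteins SNU13, NOP56, NOP58 and fibrillarin (FBL). The stretch upstream of a D box pairs with ribosomal RNA or another target, and fibrillarin, the methyltransferase, places a methyl group on the ribose of the paired nucleotide. A few members, U3 (SNORD3), U8 (SNORD118), U13 (SNORD13), U14 (SNORD14) and U22 (SNORD22), are known for the cleavage of the ribosomal RNA precursor. Most human snoRNAs are cut from the introns of host genes, many of which encode ribosomal proteins or are noncoding RNAs that are spliced and then degraded, while U3, U8 and U13 have promoters of their own.

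The sequences of the members on which most of the results turn are printed here so that the boxes can be seen. Capitals mark an ATGATGA or GTGATGA within the first 20 bases (a C box) and a CTGA within the last 15 (a D box). Each is read 5′ to 3′ on the strand of the snoRNA, from GENCODE release 29 on GRCh38. SNORD48 (chr6:31835263-31835326, plus strand) and SNORD52 (chr6:31837076-31837142, plus strand) lie within 1 host, SNHG32, and with SNORD104 (chr17:64146083-64146152, plus strand) guide methylation of large-subunit ribosomal RNA. SNORD101 (chr6:132815307-132815379, plus strand) lies in RPS12 and has no known target. SNORD22 (chr11:62852910-62853035, minus strand) lies in SNHG1 and has the D box alone by these letters.
SNORD48: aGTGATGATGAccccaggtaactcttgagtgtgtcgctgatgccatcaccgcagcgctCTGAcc
SNORD52: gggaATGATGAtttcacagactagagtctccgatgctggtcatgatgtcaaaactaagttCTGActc
SNORD104: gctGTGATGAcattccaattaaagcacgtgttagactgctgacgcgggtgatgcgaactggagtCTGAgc
SNORD101: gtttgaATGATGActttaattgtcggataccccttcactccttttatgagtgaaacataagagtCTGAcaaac
SNORD22: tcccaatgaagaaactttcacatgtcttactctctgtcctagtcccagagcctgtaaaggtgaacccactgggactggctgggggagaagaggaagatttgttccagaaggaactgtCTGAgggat

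The next set is shown because all 4 members come from 1 host, RPL13A, whose own row moved the other way. They lie on the plus strand of chromosome 19, SNORD32A at chr19:49489965-49490048, SNORD33 at chr19:49490615-49490699, SNORD34 at chr19:49490904-49490974 and SNORD35A at chr19:49491175-49491260.
SNORD32A: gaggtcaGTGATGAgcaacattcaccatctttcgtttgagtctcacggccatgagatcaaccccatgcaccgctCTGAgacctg
SNORD33: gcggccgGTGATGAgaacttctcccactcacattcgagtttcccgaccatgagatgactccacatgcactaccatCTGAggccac
SNORD34: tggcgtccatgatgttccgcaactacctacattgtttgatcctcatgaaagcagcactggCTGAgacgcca
SNORD35A: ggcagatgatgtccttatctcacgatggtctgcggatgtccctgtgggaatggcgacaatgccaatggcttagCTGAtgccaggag

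Of the 137 members, 104 matched a GENCODE snoRNA sequence by position. A D box was found in 96 of them (92.3%), a C box in 56 (53.8%) and both in 54 (51.9%), on the snoRNA's own strand. Among 80 H/ACA box snoRNAs, the other large class, the same letters in the same windows gave a C box in 0 and a D box in 2 (2.5%), so the symbols and the sequences of the rows named the same class. The search allowed no other spelling of a C box, and a row without these letters is not shown to lack one. Positions in RefSeq on GRCh38.p14 were found for 135 members, which lay on 21 chromosomes and had a median length of 76 bases, with a range of 55 to 237.

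The C/D box snoRNAs were lower in DJL1 as a class. With the quasi-likelihood test of edgeR, p-values adjusted by Benjamini-Hochberg over all 26062 rows tested and a threshold of 0.05, 91 of the 137 members (66.4%) were lower in DJL1, 1 (0.73%) was higher, and 45 were not called. Across all rows tested, 25.1% were lower and 27.0% were higher. The median log2 fold change of DJL1 over CTRL was -0.97 for the members, with quartiles of -1.29 and -0.64, and 0.01 for all rows. A log2 fold change below 0 was fitted for 132 members. In 97 members every DJL1 value lay below every CTRL value, where 26.2% of all rows did so, and 60 members (43.8%) were called lower by at least 2-fold, against 2.20% of all rows.

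**Figure D1:**
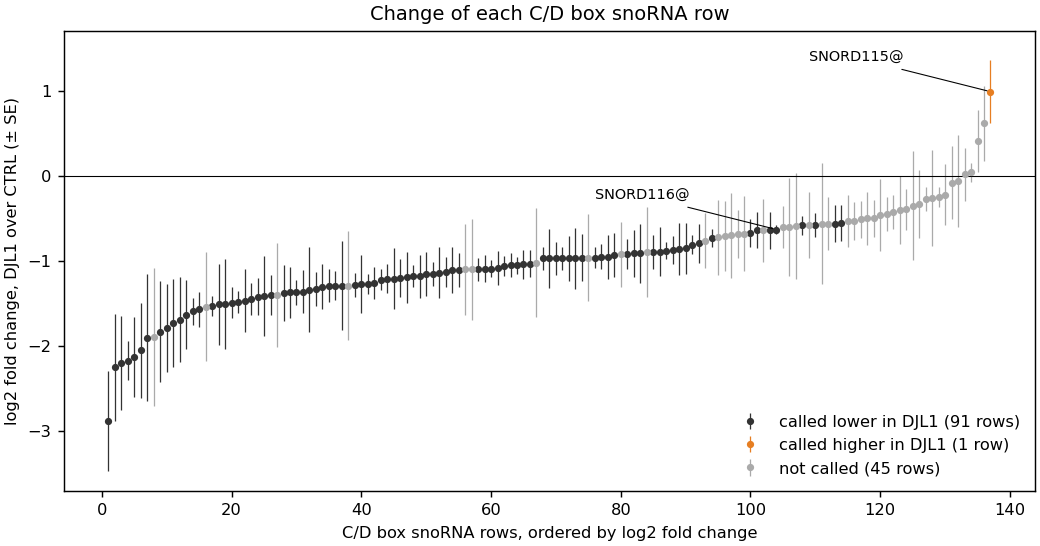
Log2 fold change of DJL1 over CTRL for each of the 137 C/D box snoRNA rows (points, with ± 1 SE), in order of size, colored by edgeR call at an adjusted p of 0.05. The 91 rows called lower spread along the left and middle of the order, the 45 uncalled rows include those nearest to 0, and SNORD115@ stands at 0.99 as the 1 row called higher.

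The lower level was seen in each DJL1 library. Against the CTRL mean, the median member had a log2 ratio of -0.98 in DJL1 replicate 1, -1.09 in replicate 2 and -0.87 in replicate 3, while the median of all rows was 0.01 in each. Of the 137 members, 125, 131 and 128 lay below the CTRL mean in these libraries. Summed over the members other than SNORD116@, the level was 197.4, 198.6 and 221.9 CPM in DJL1, against 415.4, 409.2, 387.6 and 397.5 CPM in CTRL. The sum averaged 205.9 ± 13.82 CPM in DJL1 (SD, n = 3) and 402.4 ± 12.38 CPM in CTRL (SD, n = 4), a ratio of 0.512, and the groups did not overlap. The rule on summed counts favors rows that are high in the deeper CTRL libraries. When the minimum of 50 counts was asked of the 3 DJL1 libraries alone, 98 rows passed, of which 71 (72.4%) were lower and 1 was higher, with a median of -0.95. This alternative was chosen after seeing the data.

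The share called depended on abundance, and the median change hardly did. Among the 61 members below 1 CPM on average, 26 were called lower, with a median log2 fold change of -0.96, where 5.25% of all rows in that range were called lower. Between 1 and 8 CPM, 57 of 67 members were called lower with a median of -0.97, against 17% of rows. At 8 CPM or more, 8 of 9 were called lower with a median of -1.09, against 42.6% of rows. Many members rest on few reads. In the 3 DJL1 libraries together 74 members had under 100 counts, and 6 members had a 0 in at least 1 DJL1 library, while 0 had one in a CTRL library. The median coefficient of variation of a member was 32.3% over the DJL1 libraries and 12.8% over the CTRL libraries.

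Per length of the row, SNORD48 was the highest of the 135 members with a position in CTRL, at 133 CPM per kb in DJL1 and 310 CPM per kb in CTRL, and SNORD84, which lies within DDX39B and has no known target, followed at 171 CPM per kb in DJL1 and 284 CPM per kb in CTRL. SNORD48 had 7.176, 7.389 and 10.95 CPM in DJL1, against 20.14, 21.16, 18.00 and 20.19 CPM in CTRL. All 3 DJL1 values were below all 4 CTRL values, and the log2 fold change was -1.22 ± 0.12 (SE, edgeR adjusted p = 5.4e-07). Its neighbor SNORD52 had 3.262, 5.848 and 7.014 CPM in DJL1, against 14.15, 14.01, 10.79 and 12.49 CPM in CTRL. The DJL1 libraries differed from each other by more than the CTRL libraries did, yet the groups stayed apart (log2 fold change -1.26 ± 0.19, edgeR adjusted p = 0.00012).

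SNORD84 had 13.05, 15.26 and 11.73 CPM in DJL1, against 26.16, 23.25, 19.71 and 19.38 CPM in CTRL, a log2 fold change of -0.73 ± 0.11 (edgeR adjusted p = 4.3e-05). SNORD104, printed above, had 5.454, 4.907 and 9.091 CPM in DJL1, against 16.54, 14.69, 11.79 and 13.90 CPM in CTRL, a log2 fold change of -1.13 ± 0.18 (edgeR adjusted p = 0.00018). In both, the groups did not overlap, and DJL1 replicate 3 was the highest DJL1 library for SNORD104 but the lowest for SNORD84.

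SNORD139 (U86), which lies within RPL3, was the abundant member that did not move with the others. It had 8.794, 10.30 and 7.094 CPM in DJL1, against 8.152, 8.496, 8.365 and 8.904 CPM in CTRL. The DJL1 libraries lay on both sides of CTRL (log2 fold change 0.04 ± 0.11, edgeR adjusted p = 0.79).

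**Figure D2:**
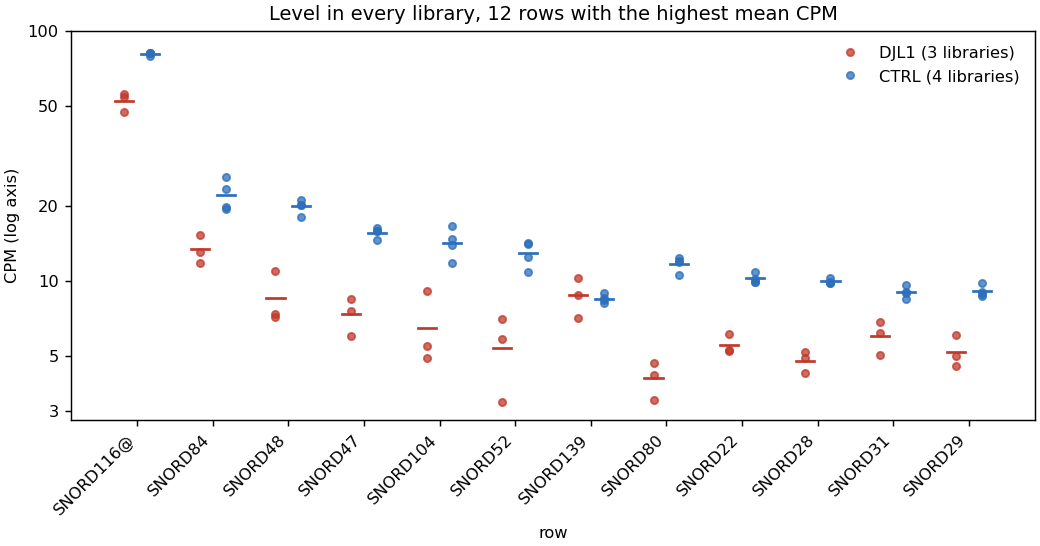
CPM on a log axis for the 12 C/D box snoRNA rows with the highest mean, DJL1 libraries (3 points) to the left of CTRL libraries (4 points), with a bar at each group's mean. In 11 of these rows every DJL1 point lies below every CTRL point, and in SNORD139 the groups overlap at 7.094 to 10.30 CPM in DJL1 and 8.152 to 8.904 CPM in CTRL.

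The largest falls among called members were those of SNORD131 (-2.88), SNORD11 (-2.25), SNORD18B (-2.20), SNORD101 (-2.17), SNORD1C (-2.13), SNORD15A (-2.05), SNORD142 (-1.90) and SNORD93 (-1.83), all as log2 fold changes. Only SNORD101 of these had over 1 CPM on average. It had 0.4958, 0.6847 and 1.079 CPM in DJL1, against 4.044, 3.064, 3.442 and 3.059 CPM in CTRL, and the change was -2.17 ± 0.23 (edgeR adjusted p = 1.4e-06). SNORD131, which had the lowest fitted value, had 0.1827, 0.05706 and 0 CPM in DJL1, against 0.6419, 0.6050, 0.5952 and 0.6057 CPM in CTRL (-2.88 ± 0.59, edgeR adjusted p = 0.00076), so its size rests on a handful of reads. SNORD142 was not called when DJL1 replicate 1 or 2 was left out, with values of -3.42 to -1.32 over the alternatives. The smallest falls that were called were those of SNORD45A (-0.55), SNORD3D (-0.56), SNORD31 and SNORD38B (-0.58 each), SNORD116@ (-0.63) and SNORD3A and SNORD58A (-0.64 each). SNORD45A lost its call without DJL1 replicate 1 or 2 or CTRL replicate 1, 2 or 4. Above 0, besides SNORD115@, stood SNORD160 (0.62, edgeR adjusted p = 0.26), SNORD175 (0.41, adjusted p = 0.39), SNORD139 and SNORD19 (0.02, adjusted p = 0.97), of which SNORD160 and SNORD175 were named after their values were seen.

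The rule for this class asked for single-copy rows to be set beside the imprinted clusters. SNORD113 and SNORD114 lie in tandem copies in the MEG3 to MEG8 region of chromosome 14, and SNORD115 and SNORD116 lie in tandem copies within SNHG14 in the Prader-Willi region of chromosome 15. Most of these copies are best known from brain, have no established ribosomal target and are transcribed from 1 parental allele. Of their 120 rows, 112 were at 0 in all 7 libraries and 2 were members, SNORD115@ and SNORD116@. These 2 symbols name whole clusters, and the files do not give the extent of either row. The 9 SNORD113 rows held 1 count in all and the 31 SNORD114 rows held 7. Over the same libraries the noncoding RNAs of that region were higher in DJL1, MEG3 at 11.97 ± 1.769 CPM against 4.492 ± 0.5005 CPM in CTRL (log2 fold change 1.42 ± 0.12, edgeR adjusted p = 1e-07) and MEG8 by 2.03 ± 0.40 on the log2 scale (adjusted p = 0.0005).

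Every member outside SNORD113 to SNORD116 was counted as single-copy, which includes small families such as the U3 and U14 copies. These 135 members had 90 lower (66.7%) and 0 higher by edgeR, with a median log2 fold change of -0.97. At an unadjusted p under 0.05, 0 were higher and 101 lower, and DESeq2 and limma-voom also called 0 higher, with 91 and 93 lower. SNORD116@ held 27484 counts, the most of any member. It had 55.84, 47.30 and 54.52 CPM in DJL1, against 81.71, 81.72, 81.88 and 79.79 CPM in CTRL, so that the groups did not overlap (log2 fold change -0.63 ± 0.05, edgeR adjusted p = 1.2e-07). This was a smaller change than that of the median single-copy member, though the difference between them was not tested. The extent of the SNORD116@ row is not given, and snoRNA and host transcript cannot be told apart in it. Its value is thus not shown to be that of the SNORD116 snoRNAs.

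SNORD116@ moved with SNHG14, the long RNA from which the cluster is cut. SNHG14 had a log2 fold change of -0.64 ± 0.05, and the row held 39.5, 39.7 and 40.2 counts per 100 counts of SNHG14 in DJL1, against 39.5, 39.0, 39.8 and 39.8 in CTRL. The ratio overlapped between the groups. SNORD109A, a separate member within SNHG14, fell by more than SNHG14 in the fit (log2 fold change -1.21 ± 0.36, edgeR adjusted p = 0.011). It rests on 14, 6 and 24 counts in DJL1, against 60, 73, 47 and 66 in CTRL. Other transcripts of the region were lower as well, SNRPN by a log2 fold change of -0.72, IPW of -0.76, PWAR6 of -1.36 and PWAR5 of -0.28.

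SNORD115@ was the member called higher. It had 0.6263, 0.8559 and 0.4586 CPM in DJL1, against 0.3049, 0.3814, 0.2574 and 0.3483 CPM in CTRL, from 24, 30 and 17 counts in DJL1 and 19, 29, 16 and 23 counts in CTRL. The groups did not overlap, as in 27.4% of all rows in that direction. The log2 fold change was 0.99 ± 0.37 (edgeR adjusted p = 0.037). The call was lost on leaving out DJL1 replicate 1, DJL1 replicate 2 or any 1 of the 4 CTRL libraries, and the value stayed at 0.73 to 1.18 over 16 alternatives, with adjusted p-values of 0.0167 to 0.152. The cluster lies inside the same long transcript as SNORD116@, which fell.

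Host genes were found for 129 members, and 126 of these had a host whose row was tested, 63 hosts in all. For members that matched no GENCODE snoRNA the strand was not known, so such a host may lie on the opposite strand. The hosts changed less than the snoRNA rows. Of the 63, 43 were lower (68.3%), 9 higher (14.3%) and 11 not called, with a median log2 fold change of -0.25. Across all rows tested, 25.1% were lower and 27% higher. At 8 CPM or more, 42.6% of all rows were lower and 27% higher. In 116 of the 126 pairs the snoRNA row had the lower log2 fold change, and the median difference, row minus host, was -0.76, with quartiles of -1.14 and -0.43. The ratio of the row to its host lay below every CTRL ratio in all 3 DJL1 libraries for 76 members and above every CTRL ratio for 0. No such share was computed for ratios of other rows. For the level of single rows it was 26.2% of all rows tested. The ratio also carries the fall of the snoRNA row itself. Of the called members 61 had a host that was lower, 14 a host that was not called and 11 a host that was higher. Across the 126 pairs the change of the row and that of the host had a Pearson r of 0.12 and a Spearman rho of 0.14, a description only, since members share hosts and all share the libraries. The change had an r of 0.03 with length over 135 members, of 0.10 with the GC content of the snoRNA over 104, and of 0.04 with log2 mean CPM over 137.

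**Figure D3:**
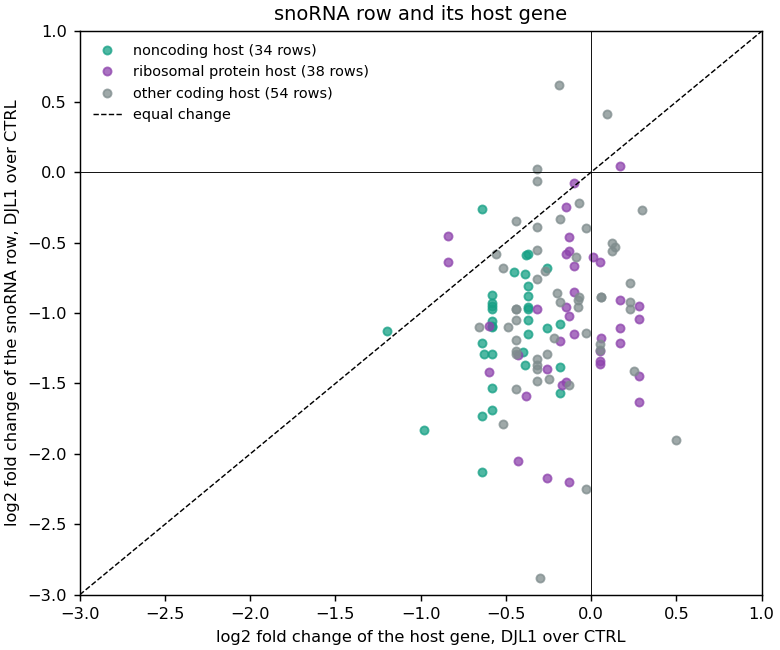
Log2 fold change of each of 126 C/D box snoRNA rows (vertical axis) against that of its host gene (horizontal axis), DJL1 over CTRL, colored by kind of host, with a dashed line of equal change. Of the points, 116 lie below the line, and the column of points at 0.28 on the horizontal axis is the 4 members of RPL13A.

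By kind of host in GENCODE release 29, members of noncoding hosts had 29 of 34 lower and a median log2 fold change of -1.08. Members of ribosomal protein genes had 29 of 38 lower and a median of -1.10. Members of other coding genes had 30 of 57 lower and a median of -0.92. These last include SNORD48 and SNORD52, whose host SNHG32 is coding in that release but a long noncoding RNA in RefSeq. In each kind 0 were higher by edgeR, also at an unadjusted p under 0.05 and by DESeq2 and limma-voom. The 8 members with no host found had 3 lower, 1 higher and a median of -0.54. They include the 5 near-identical U3 rows, and also SNORD115@ and SNORD116@, for which no position was at hand to search for a host. The 8 are thus no class of snoRNAs without a host. Exons of the chosen host alone were considered here, and not those of other genes at the same place. Of the members with a host, 46 lay in introns of every annotated transcript of that host, with 26 lower and a median of -1.09. Another 76 overlapped an exon only of host transcripts outside the GENCODE basic set, with 58 lower and a median of -0.97. The remaining 7 overlapped an exon of a basic transcript, with 4 lower and a median of -1.10. Lower values were thus seen both where the row covers intron alone of its host and where it overlaps an annotated exon of it.

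GAS5 is a noncoding host on chromosome 1 whose introns hold guides for ribosomal RNA, and its 10 members were all lower, with log2 fold changes of -0.87 to -1.69 and a median of -1.08. GAS5 itself fell less, at 113.0, 142.3 and 117.4 CPM in DJL1, against 185.9, 185.6, 186.2 and 182.5 CPM in CTRL (log2 fold change -0.58 ± 0.06, edgeR adjusted p = 1.3e-06). Its members together had 28.26, 28.30 and 30.19 CPM in DJL1, against 61.89, 65.06, 64.62 and 60.60 CPM in CTRL. Per 100 GAS5 counts they held 25, 19.9 and 25.7 counts in DJL1, against 33.3, 35.1, 34.7 and 33.2 in CTRL, and the groups did not overlap.

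Within GAS5, SNORD80, a guide for large-subunit ribosomal RNA, had 3.314, 4.679 and 4.208 CPM in DJL1, against 11.87, 12.35, 12 and 10.52 CPM in CTRL (log2 fold change -1.53 ± 0.12, edgeR adjusted p = 4.3e-08). SNORD47, another such guide, had 8.429, 5.991 and 7.553 CPM in DJL1, against 14.54, 15.85, 16.20 and 15.76 CPM in CTRL (-1.09 ± 0.10, adjusted p = 3.3e-07). SNORD44, a guide for small-subunit ribosomal RNA, had 3.288, 3.224 and 3.048 CPM in DJL1, against 7.173, 6.878, 6.643 and 5.891 CPM in CTRL (-1.06 ± 0.12, adjusted p = 2.3e-06). None of these overlapped between the groups. The other 7 members had log2 fold changes of -1.69 for SNORD75, -1.29 for SNORD81, -1.10 for SNORD76, -0.97 for SNORD79, -0.95 for SNORD78, -0.93 for SNORD77 and -0.87 for SNORD74.

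SNHG1, the noncoding host on chromosome 11 of the U22 snoRNA and of guides, had a log2 fold change of -0.37 ± 0.04 (edgeR adjusted p = 4.2e-06), and its 7 members were all lower, at -0.58 to -1.15 with a median of -0.96. Per 100 SNHG1 counts they held 9.76, 8.15 and 10.8 counts in DJL1, against 13.8, 13.8, 13.4 and 13.6 in CTRL. SNORD22 had 6.132, 5.278 and 5.233 CPM in DJL1, against 10.19, 9.916, 9.909 and 10.87 CPM in CTRL (-0.88 ± 0.10, adjusted p = 1.8e-06). The guides were SNORD30 at -1.15, SNORD28 at -1.05, SNORD26 at -0.97, SNORD27 at -0.96 and SNORD29 at -0.81, and SNORD31 had the smallest change, at -0.58. For the 17 members of GAS5 and SNHG1 together, DESeq2 and limma-voom also called 17 lower.

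**Figure D4:**
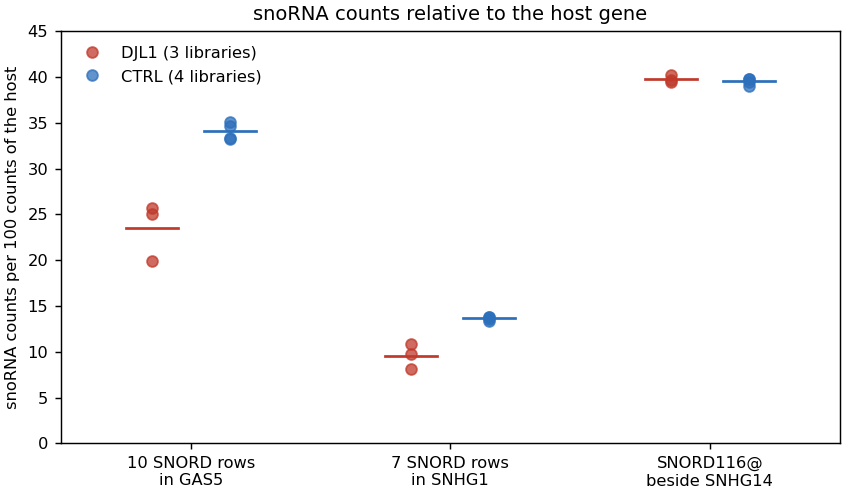
Counts of snoRNA rows per 100 counts of the host row in each library, for the 10 members of GAS5, the 7 members of SNHG1 and SNORD116@ beside SNHG14, DJL1 (3 points) to the left of CTRL (4 points), with a bar at each mean. For GAS5 the DJL1 points lie at 19.9 to 25.7 against 33.2 to 35.1 in CTRL, while for SNHG14 both groups lie between 39.0 and 40.2.

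RPL13A, which encodes a protein of the large ribosomal subunit, gave the widest gap between a host and its members among hosts of at least 4. Its row was higher in DJL1, at 1266, 1408 and 1414 CPM, against 1118, 1136, 1107 and 1142 CPM in CTRL (log2 fold change 0.28 ± 0.04, edgeR adjusted p = 5.5e-05). All 4 of its members were lower. SNORD35A had 0.8872, 0.9985 and 1.079 CPM in DJL1, against 3.001, 2.525, 2.316 and 2.968 CPM in CTRL (-1.45 ± 0.19, adjusted p = 1.1e-05). SNORD32A was at -1.04 ± 0.17, SNORD33 at -0.95 ± 0.26 and SNORD34 at -1.63 ± 0.41, and in each the groups stayed apart.

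RPL3 was likewise higher, with a log2 fold change of 0.17, and 3 of its 4 members were lower, SNORD83B at -1.21, SNORD83A at -1.11 and SNORD43 at -0.91 (not called without DJL1 replicate 1), SNORD139 being the exception given above. RPL23A was not called (0.05), and of its members SNORD42A (-1.36), SNORD4B (-1.34) and SNORD4A (-1.27) were lower and SNORD42B (-0.64, adjusted p = 0.17) was not called. SNORD4B lost its call on leaving out DJL1 replicate 1 or 2 or CTRL replicate 1 or 4. RPL7A (-0.10, not called without DJL1 replicate 1 or any 1 CTRL library) held SNORD36B (-1.15), SNORD36C (-0.85) and SNORD36A (-0.67), which were lower, and SNORD24 at -0.08 (adjusted p = 0.89). SNORD36C was not called without DJL1 replicate 2 or 3 or without CTRL replicate 3 or 4.

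Fewer members were called in the introns of RPL4 (-0.13) and GNL3 (-0.32), a nucleolar GTPase. In RPL4, SNORD18B was lower (-2.20), while SNORD18C was at -1.02, SNORD18A at -0.56 and SNORD16 at -0.46, with adjusted p-values of 0.20, 0.54 and 0.39. In GNL3, SNORD19C was lower (-1.37), while SNORD69 was at -1.40, SNORD19B at -0.76, SNORD136 at -0.06 and SNORD19 at 0.02, with adjusted p-values of 0.066, 0.057, 0.94 and 0.97. SNORD69 was one of the members with a DJL1 library at 0.

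SNHG32, the host of SNORD48 and SNORD52, was not called (log2 fold change 0.05 ± 0.08, edgeR adjusted p = 0.61), at 495.3, 681.7 and 547.6 CPM in DJL1, against 564.7, 561.6, 538.4 and 549.6 CPM in CTRL. Without DJL1 replicate 2, its highest library, SNHG32 was called lower (-0.10, adjusted p = 0.0332). ZFAS1 was not called either (-0.18), with all 3 of its members lower, while SNHG25, the host of SNORD104, had a log2 fold change of -1.20, close to that of its member at -1.13. DDX39B, the host of SNORD84 and SNORD117, held 1 count and EIF4A1, the host of SNORD10, held 0, so these pairs are not among the 126. The readthrough gene ATP6V1G2-DDX39B, which also contains SNORD84 and SNORD117, held 2228 counts and was lower (log2 fold change -0.99 ± 0.15, edgeR adjusted p = 4.4e-05, beside -0.73 for SNORD84 and -0.42 for SNORD117). SENP3-EIF4A1 held 290 counts and was at -0.38 ± 0.30 (adjusted p = 0.30), beside -1.03 for SNORD10. With readthrough genes allowed as hosts, an alternative chosen after seeing the data, 117 of 129 rows lay below the host, with a median difference of -0.74. RPL17, which holds SNORD58A (-0.64, adjusted p = 0.024), had a log2 fold change of -0.84, and SNORD58A lost its call without DJL1 replicate 2 or CTRL replicate 1 or 2. DDX39B, EIF4A1 and RPL17 each share exons with an annotated readthrough transcript, and how the authors counted shared reads is not given in the sources used here.

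Among the snoRNAs known for cleavage of the ribosomal RNA precursor, 11 of 13 listed rows were tested, 7 were lower and 0 higher, with a median log2 fold change of -0.79. The U3 rows have promoters of their own. SNORD3A had 0.8611, 1.198 and 1.214 CPM in DJL1, against 1.669, 1.578, 1.850 and 1.711 CPM in CTRL (-0.64 ± 0.21, edgeR adjusted p = 0.016), and SNORD3D was at -0.56 ± 0.22 (adjusted p = 0.045). SNORD3B-2, SNORD3B-1 and SNORD3C were at -0.53, -0.51 and -0.50, with adjusted p-values of 0.058, 0.064 and 0.073. In all 5 the DJL1 values lay below the CTRL values. These rows are no independent observations, since their sequences are 98.2% to 100% identical over 217 bases and their counts nearly equal, so how reads are split among them is uncertain. The call of SNORD3A was lost without DJL1 replicate 1, and that of SNORD3D without DJL1 replicate 1 or 2 or any 1 CTRL library and by DESeq2 and limma-voom.

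SNORD14A and SNORD14B, the U14 copies of RPS13, had log2 fold changes of -1.09 ± 0.16 (edgeR adjusted p = 3.9e-05) and -1.42 ± 0.22 (adjusted p = 6.5e-05), beside -0.60 for RPS13. The U14 copies of HSPA8, a chaperone gene that was higher (0.23), were SNORD14C at -0.97, SNORD14D at -0.79 and SNORD14E at -0.92, of which SNORD14E was not called (adjusted p = 0.057). U8 (SNORD118) was at 0 in all 7 libraries. Its position lies within the span of TMEM107, which held 1832 counts. How shared reads were counted is not given, so the 0 does not show that U8 was absent. U13 (SNORD13) had 0 counts in each DJL1 library and 3, 4, 2 and 1 in CTRL, at or near the 3 counts that a 0 allows in 1 library.

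The class most like the C/D box snoRNAs moved by about as much. Of the H/ACA box snoRNAs with at least 50 counts, 83 rows, which guide pseudouridylation, 82 were tested, 47 (57.3%) were lower and 0 higher by edgeR, also at an unadjusted p under 0.05 and by DESeq2 and limma-voom. The median log2 fold change was -0.96, beside -0.97 for the C/D box rows. They summed to 76.61, 68.84 and 81.44 CPM in DJL1, against 146.4, 155.0, 145.5 and 145.7 CPM in CTRL, a ratio of 0.511. Of the small Cajal body RNAs, which guide modification of spliceosomal RNAs, 10 were tested and 2 were lower, with a median of -0.65. Among 236 other rows that span under 300 bases, such as microRNA precursors and short pseudogenes, 45 (19.1%) were lower, 14 higher and the median was -0.58. Short rows thus had a median below 0 outside the snoRNAs as well, and the part of row length in the snoRNA values was not tested beyond the correlation with length given above.

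**Figure D5:**
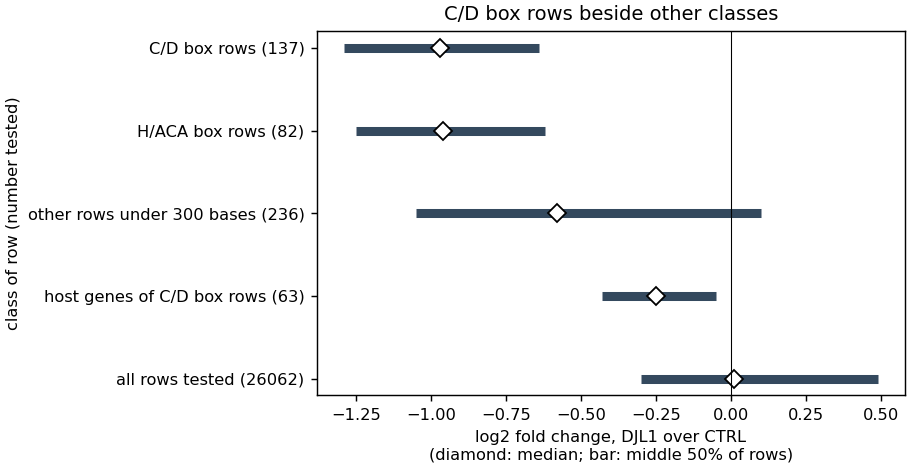
Median (diamond) and middle 50% (bar) of the log2 fold changes of DJL1 over CTRL for 137 C/D box rows, 82 H/ACA box rows, 236 other rows under 300 bases, 63 host genes and all 26062 rows tested. The medians lie at -0.97, -0.96, -0.58, -0.25 and 0.01.

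Other RNAs without a poly(A) tail changed in both directions. The list held transcripts of RNA polymerase III, spliceosomal RNAs and the U7 RNA (RNU7-1). Of these 28 RNAs, 10 were tested, 3 were higher and 1 lower, and 9 were at 0 in every library. The median log2 fold change of the 10 was -0.12, with 6 below 0. They summed to 49.89, 44.79 and 36.85 CPM in DJL1, against 28.13, 28, 25.48 and 26.98 CPM in CTRL. Without RNU6-1 the sums overlapped, at 28.23, 34.78 and 23.82 CPM in DJL1, against 27.52, 27.68, 24.69 and 26.47 CPM in CTRL. Most of these sums was RN7SL1, at 21.76, 28.21 and 18.29 CPM in DJL1 and 17.89 to 19.75 CPM in CTRL, so they say little about the other RNAs. RNU6-1, a U6 spliceosomal RNA, had 21.66, 10.01 and 13.03 CPM in DJL1, against 0.6098, 0.3156, 0.7882 and 0.5149 CPM in CTRL (log2 fold change 4.76 ± 0.30, edgeR adjusted p = 1.6e-07). U6 has many near-identical copies, so its row is uncertain. RNU5A-1 was at 1.06 and RN7SL1 at 0.26, of which RN7SL1 lost its call when any 1 library other than DJL1 replicate 3 was left out, and by DESeq2 and limma-voom. RPPH1, the RNA of ribonuclease P, was the 1 that was lower (1.205 ± 0.04784 CPM in DJL1 and 2.352 ± 0.2771 CPM in CTRL, -0.97 ± 0.18, adjusted p = 0.00038). RN7SK was at -0.04 (adjusted p = 0.88). Over the 24 short rows that RefSeq classes as small nuclear RNA, many of them with no gene name, 4 were lower and 2 higher, 22 lay below 0 and the median was -0.69.

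The rows of the genes for the core proteins changed far less than the snoRNA rows, and no protein was measured. Of these 4 genes, NOP56 was lower, at 355.1 ± 10.49 CPM in DJL1 and 480.3 ± 8.598 CPM in CTRL (log2 fold change -0.44 ± 0.04, edgeR adjusted p = 1.4e-07). SNU13, which binds the boxes first, was at -0.28 ± 0.04 (adjusted p = 8.9e-05) and FBL, the methyltransferase, at -0.20 ± 0.05 (adjusted p = 0.0032). NOP58 was not called, at 201.1 ± 6.077 CPM in DJL1 and 205.2 ± 1.485 CPM in CTRL (-0.03 ± 0.04, adjusted p = 0.54). NOP56 and NOP58 are themselves hosts of C/D box snoRNAs, and SNORD11, in NOP58, was at -2.25.

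Of 8 assembly factors 2 were higher (25%) and 4 lower (50%). All 8 lay at 8 CPM or more, where 27% of all rows were higher and 42.6% lower, so these shares were near those of all such rows. ZNHIT6 (BCD1), which is needed for C/D box snoRNAs to accumulate, was higher, at 82.20, 78.54 and 76.26 CPM in DJL1, against 39.17, 35.63, 35.65 and 40.28 CPM in CTRL. The groups lay far apart (log2 fold change 1.07 ± 0.05, edgeR adjusted p = 5.1e-10), and RPAP3, of the R2TP chaperone complex, was higher by 0.15. The ATPases RUVBL1 and RUVBL2 of the same complex were lower, at -0.34 and -0.12, as were PIH1D1 at -0.22 and NOPCHAP1 at -0.39.

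Of 16 genes of snoRNA maturation and turnover 4 were higher (25%) and 9 lower (56.2%), with a median of -0.16. All 16 lay at 8 CPM or more, where 27% of all rows were higher and 42.6% lower, so these shares were not far from those of all such rows. TENT4B, a poly(A) polymerase that tags nuclear RNAs for trimming or decay, was higher, at 45.14, 49.50 and 38.57 CPM in DJL1, against 31.31, 30.50, 33.52 and 31.74 CPM in CTRL (0.48 ± 0.07, edgeR adjusted p = 3e-05). TGS1, which makes the trimethyl cap of U3, was higher by 0.26, XRN1 by 0.25 and PHAX, an export adaptor, by 0.14. EXOSC3, of the nuclear exosome, was lower, at -0.40, as were EXOSC10, a catalytic exosome subunit, at -0.23, RBM7 of the NEXT complex at -0.34, TENT4A at -0.29 and NOLC1, a chaperone of snoRNPs, at -0.26. Among 19 listed host genes, noncoding in RefSeq except for SNRPN, 14 were lower and 2 higher, with a median of -0.37. The lowest of the list was DANCR at -0.77. Outside the list, the noncoding hosts SNHG25 and SNHG26 were lower still, at -1.20 and -0.98.

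The authors' deposited table of the same contrast held 88 of the members. By the authors' deposited table, lower values with an adjusted p under 0.05 were given for 74 of these and higher ones for 0, and the median log2 fold change was -1.04. Of the 20199 rows of the authors' deposited table, 30.1% were lower by the same threshold and the median was 0.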

How the data were processed

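Poly(A)-selected RNA of 3 DJL1 and 4 CTRL libraries was sequenced. Per the submitters' processing notes, Trim Galore 0.4.0, HISAT2 2.2.1, featureCounts and Subread 1.5.0 and the build GRCh38 were used, with settings not given there. The authors deposited raw counts per gene symbol, and a comparison table with log2 fold changes, test scores and p-values, per the file headers. From the counts, edgeR 4.0.16 (R 4.3.3) was fitted to all 7 libraries with filterByExpr (minimum count 10, minimum total 15), TMM factors, robust quasi-likelihood dispersions and Benjamini-Hochberg adjustment over 26062 rows. All 137 members passed that filter. SE is the log2 fold change over the root of F, and CPM uses TMM-scaled libraries. A host is the gene in GENCODE release 29 that contains the snoRNA, the one with most counts where several do, leaving out readthrough genes. For the 104 members that matched a GENCODE snoRNA, the host had to lie on the same strand. For the others the strand was not known, and a host was taken only if all genes containing the snoRNA lay on a single strand.

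Named members are those with promoters of their own, the 8 highest by CPM, the 8 highest and 8 lowest called changes, the top rows of each cluster, all members of hosts with at least 4 (the members of 1 such host are not reported here), and those next to the count minimum. Of each other list up to 4 genes with the smallest adjusted p were named, with all core proteins, and further genes of the same lists or region were added after their values were seen. The members and lists were chosen with earlier results of these data known. DESeq2 1.42.0 and limma 3.58.1 served as alternatives. No batch is given in the labels. Rows were matched by symbol, and 135 of the 137 members had a RefSeq position.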

Additional observations from a re-analysis of the deposited data

Results flagged for a closer look

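Of 73 sets of 4 CTRL values examined, 4 held 1 library set apart from the other three by Dixon's 95% limit, and chance alone sets apart about 1 set in 20. SNORD116@ was lowest in CTRL replicate 4, at 79.79 CPM, against 81.71 to 81.88 CPM in the others. SNORD18C was highest in CTRL replicate 3, at 0.5952 CPM, against 0.3551 to 0.3691 CPM. SNORD79 was highest in the same library, at 5.324 CPM, against 4.445 to 4.477 CPM. The summed H/ACA box rows were highest in CTRL replicate 2, at 155.0 CPM, against 145.5 to 146.4 CPM. All 3 DJL1 values of SNORD116@, SNORD79 and the H/ACA sum lay below every CTRL value, with or without these libraries.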

How the results depend on the processing

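The number of members called lower was 91, and 70 to 95 over all alternatives, the 70 under a filter of 1 CPM in 3 libraries that left 82 members. The median log2 fold change of the members stayed at -1.07 to -0.95, and the median difference from the host at -0.82 to -0.71. The number called higher, 1 (SNORD115@), became 0 with no filter on low counts, the stricter filter, thinning to the smallest library, limma-voom with a variance for each group (chosen after seeing the data), a minimum of 200 counts and an adjusted p under 0.01, and was 0 to 1 with 1 library left out. The causes were not tested. The count of 1 lower RNA without a poly(A) tail was 1 to 2 with 1 library left out. Same-numbered DJL1 and CTRL libraries did not deviate together over all rows tested (correlations of -0.009, -0.039 and -0.025). All rows weigh the same there, many with few reads, so this cannot tell whether same-numbered libraries shared a culture or batch. A replicate block gave 82 members lower and 0 higher, 5863 rows higher and 5614 lower, and a median of -1.06.

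Signs changed for values near 0 that were not called. SNORD19 (0.02) was at -0.10 by limma-voom and by limma-voom with a variance for each group, -0.01 with no filter, 0.00 when thinned, -0.15 with the replicate block, and -0.23 to 0.35 with 1 library left out. With 1 library left out, SNORD24 (-0.08) was at -0.43 to 0.35, SNORD136 (-0.06) at -0.21 to 0.16, SNORD139 (0.04) at -0.10 to 0.16, RPL23A (0.05) at 0.00 to 0.07 and SNHG32 (0.05) at -0.10 to 0.14. NOP58 was at 0.00 with the stricter filter. For 68 named members, 1029 of 1118 values under an alternative kept their direction and side of the threshold. The scaling alternatives of edgeR moved the median of all rows by -0.009 to 0.019 on the log2 scale, and leaving out the filter on low counts by -0.043. Depth limits the 74 members with under 100 counts in the DJL1 libraries.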
